A study of Mus musculus with 24 samples.

Results

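The genes described here are the acid-base genes of renal intercalated cells: Foxi1, Atp6v1b1, Atp6v1g3, Atp6v0d2, Slc4a1, Slc4a9, Slc26a4, Rhbg, Rhcg and Aqp6. They were taken as a list of 10 symbols, by known function and not by a measured value, from the 53392 genes in the files. Earlier results of these data were known when the list was chosen. Each symbol had a single gene record, all 10 had reads in all 23 samples, and all 10 passed the low-count filter in both kinds of isolate. The mice were of the inbred FVB strain, females (F) and males (M), and had either a sham operation, which the labels also call no injury, or ischemia that caused acute kidney injury (AKI). Kidney messenger RNA was sequenced. Microdissection gave proximal tubules, and microbeads against CD31 gave endothelial cells. The tubule groups were sham F, injured F, sham M and injured M with 3 samples each, and the endothelial groups were the same with 3 samples each except sham F, with 2. Per the labels, each group drew on 3 mice of a sex, so replicates were taken as separate animals, and the p-values measure the spread between these samples. The labels give no age and no length of ischemia or recovery, and they do not say whether a tubule and an endothelial sample with the same title number came from the same mouse. Sham M tubule replicate 3 was sequenced as 2 libraries, which were summed.

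Intercalated cells of the connecting tubule and collecting duct keep the acid-base balance of the body. Foxi1 encodes the forkhead transcription factor on which their differentiation depends. Type A cells secrete protons into the urine through a vacuolar proton pump in the apical membrane and return bicarbonate to the blood through the basolateral anion exchanger AE1, the product of Slc4a1. Type B cells secrete bicarbonate through the apical exchanger pendrin, the product of Slc26a4, and carry the exchanger AE4, the product of Slc4a9, on the basolateral side. Atp6v1b1, Atp6v1g3 and Atp6v0d2 encode the pump subunits B1, G3 and d2, forms that are enriched in these cells over the forms found in every cell. Rhbg and Rhcg encode ammonia channels of the collecting duct, and Aqp6 encodes a water and anion channel kept in vesicles of type A cells. Neither isolate is labelled as containing intercalated cells.

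On GRCm38, Foxi1 is on chromosome 11 (34204338 to 34208089, minus strand), as is Slc4a1 (102348824 to 102366203, minus strand). Atp6v1b1 is on chromosome 6 (83742990 to 83758855, plus strand), Atp6v1g3 on chromosome 1 (138273738 to 138289462, plus strand) and Atp6v0d2 on chromosome 4 (19876841 to 19922605, minus strand). Slc26a4 is on chromosome 12 (31519827 to 31559969, minus strand). Rhbg is on chromosome 3 (88242874 to 88254709, minus strand), Rhcg on chromosome 7 (79593363 to 79617657, minus strand) and Aqp6 on chromosome 15 (99601400 to 99605477, plus strand). Rhbg was the only member that shared annotated exon bases with another gene, 187 bases with Gm38392 on the same strand, so reads in that stretch could go to either.

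RefSeq promoter sequences of GRCm38.p6 were matched for 6 of the 10 genes. The 250 bases before the start are printed for 4 of them, because Rhcg and Atp6v1b1 differed between injured M and F tubules while Foxi1 and Slc26a4 did not pass that test. Capitals mark a match, on the strand shown, to the forkhead core TGTTTAC or to the TATA box TATAAA.
Foxi1, chr11:34208090-34208339, minus strand: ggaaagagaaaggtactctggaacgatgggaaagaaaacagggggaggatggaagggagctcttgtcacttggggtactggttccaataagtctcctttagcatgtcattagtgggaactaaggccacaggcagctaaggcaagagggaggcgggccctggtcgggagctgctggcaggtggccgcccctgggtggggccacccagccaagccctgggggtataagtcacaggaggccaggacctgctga
Atp6v1b1, chr6:83742767-83743016, plus strand: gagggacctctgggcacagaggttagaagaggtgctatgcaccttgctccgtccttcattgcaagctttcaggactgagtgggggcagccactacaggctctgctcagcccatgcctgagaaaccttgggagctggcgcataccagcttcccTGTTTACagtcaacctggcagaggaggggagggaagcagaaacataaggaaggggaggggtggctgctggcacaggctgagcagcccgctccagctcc
Rhcg, chr7:79617658-79617907, minus strand: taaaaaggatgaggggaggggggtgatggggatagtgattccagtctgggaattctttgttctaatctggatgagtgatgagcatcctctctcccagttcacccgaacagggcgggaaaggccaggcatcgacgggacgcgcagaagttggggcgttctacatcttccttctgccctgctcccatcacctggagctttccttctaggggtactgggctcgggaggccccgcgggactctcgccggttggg
Slc26a4, chr12:31559985-31560234, minus strand: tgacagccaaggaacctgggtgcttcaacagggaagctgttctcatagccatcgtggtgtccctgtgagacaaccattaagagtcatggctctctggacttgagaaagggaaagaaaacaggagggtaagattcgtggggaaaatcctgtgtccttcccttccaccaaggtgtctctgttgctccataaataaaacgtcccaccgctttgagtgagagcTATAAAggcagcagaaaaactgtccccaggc
Both strands of the 6 windows were searched for each motif. TGTTTAC was found in 1 of the 6, that of Atp6v1b1, where it starts 98 bases before the RefSeq start that follows the printed window, against 3.17% of 32851 promoters of the same length. TATAAA was found in 1 of the 6, that of Slc26a4, 31 bases before its RefSeq start, against 12.4% of all promoters. For both genes that start differs from the end of the gene model given above. The motifs do not overlap, and a match is a description of letters and not a binding site.

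Levels are given as CPM, estimated reads per gene scaled to a common library size with TMM, a correction for library composition, within the isolate. Sums over a gene list, levels per kb and single marker levels in both isolates use instead the scaling of all 23 samples, so a sum differs slightly from that of the single values. Samples held 32592517 to 54906972 estimated reads. In the tubule isolates the summed CPM of 13 proximal tubule markers was 13600 to 32400, and that of 12 endothelial markers was 157 to 437. In the endothelial isolates the endothelial sum was 456 to 2190, all 12 markers were higher than in tubules after sham and after injury (Pecam1, the CD31 gene, by 2.07 ± 0.32 on the log2 scale after sham, edgeR adjusted p = 0.000294), and the proximal tubule sum was still 8670 to 29500. The injury genes Havcr1 and Lcn2 rose in injured M tubules (5.61 ± 0.83 and 7.29 ± 1.04 on the log2 scale, edgeR adjusted p = 0.00244 and 0.00203). In F tubules the same genes gave 2.92 ± 0.76 and 4.83 ± 1.06 (edgeR adjusted p = 0.147 and 0.0931). Of 11 erythroid markers, which matter because red cells also carry AE1, Rhag was at 0 in 21 of 23 samples and Rhd in 22, while Hbb-bs, Hba-a1, Hba-a2, Hbb-bt and Alas2 had reads in all 23, with a median of 48.6 CPM for the globin Hbb-bs. Injured M tubule replicate 3 stood apart: without it the genes called for injury in M tubules went from 3488 to 8203. Sham M tubule replicate 3 had the lowest level of all 10 acid-base genes in its group, and sham M replicate 1 the highest of all 10.

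Read models differed in weight. The full-length transcript Slc4a1-201, with 20 exons, held a median of 96.7% of the gene's reads, and Slc4a1-202, 203 and 205 were listed at 0 in all 24 libraries. Slc4a1-201 was the only protein-coding model of the gene, so this share cannot tell its start from that of a shorter coding transcript. The short model Slc4a1-204 (357 bases), which starts in the intron after exon 3, held a median of 3.27% of reads but 57.5% of the gene's TPM. Slc26a4-202 (385 bases) held 4.64% of reads and 50.3% of TPM. Levels were therefore compared between genes as CPM per kb of the longest transcript. Over 23 samples the median level per kb ran from 30.4 for Atp6v1b1 and 28.3 for Rhcg, through 25.4 for Aqp6, 19.6 for Atp6v1g3 and 17.3 for Slc26a4, to 11.7 for Rhbg, 11.0 for Atp6v0d2, 8.18 for Foxi1, 8.17 for Slc4a1 and 5.79 for Slc4a9. Some neighbours in that order were not separated: Atp6v1b1 was above Rhcg in 12 of 23 samples, Aqp6 above Atp6v1g3 in 12, Rhbg above Atp6v0d2 in 11 and Foxi1 above Slc4a1 in 11. Atp6v1g3 was above Slc26a4 in 22 of 23 samples, Slc26a4 above Rhbg in 19 and Atp6v0d2 above Foxi1 in 21. The range between the highest and lowest sample was narrowest for Atp6v1b1, at 5.56-fold, and widest for Aqp6, at 21.2-fold.

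**Figure D1:**
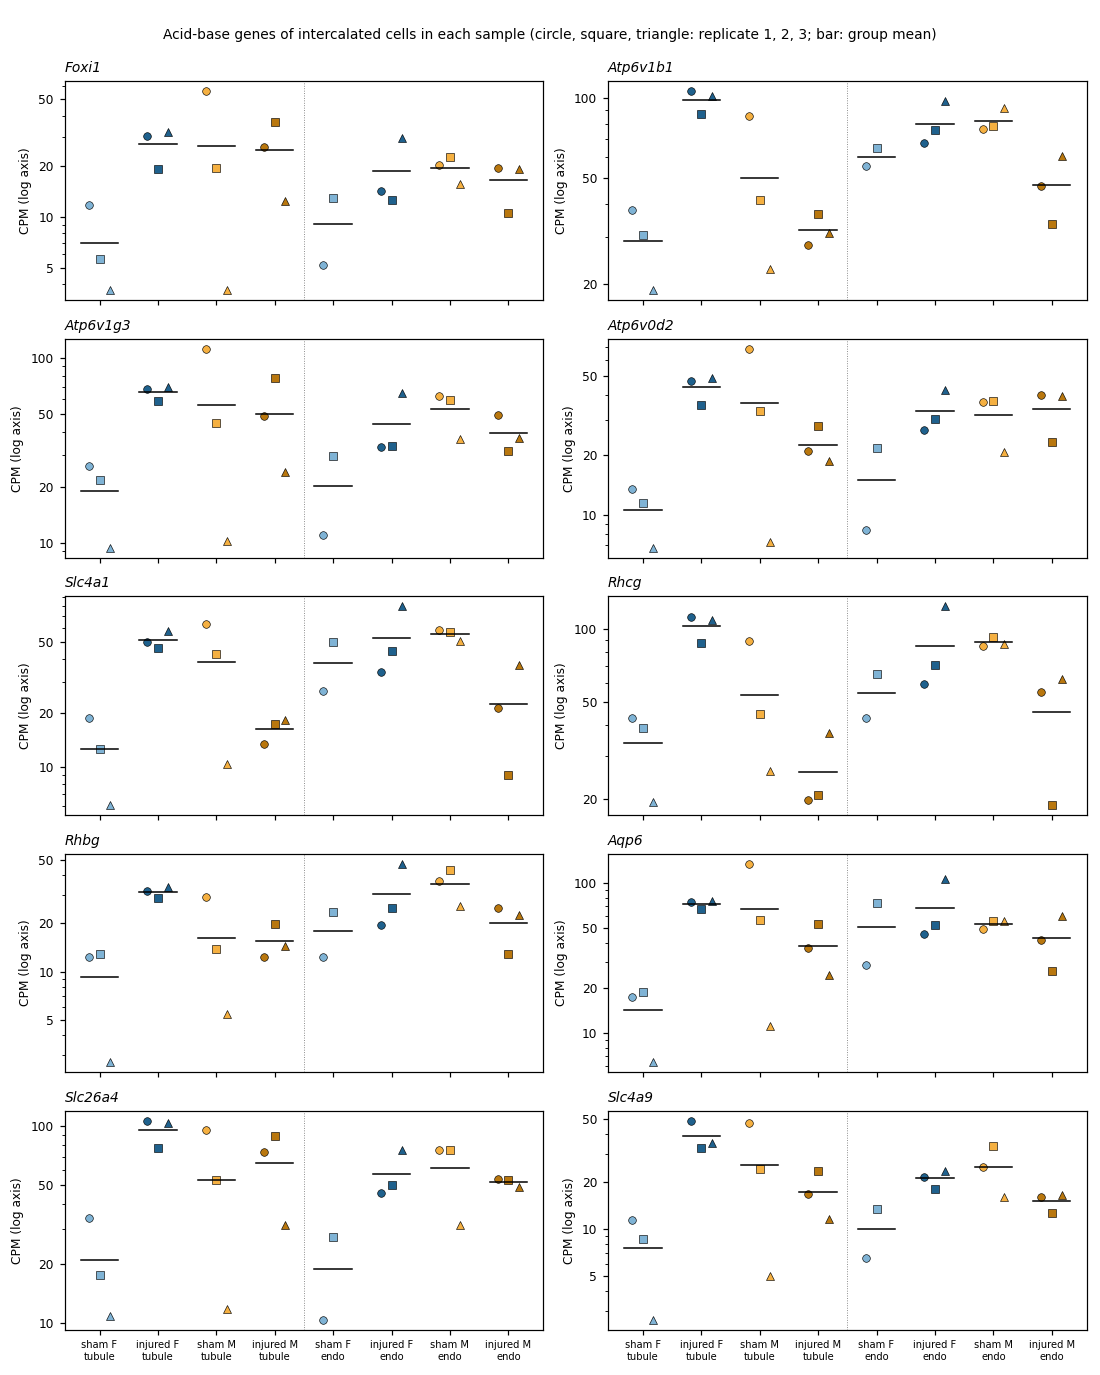
CPM of each of the 10 genes in every sample, on log axes that differ between panels, with the fit of all 23 samples used for scaling; circles, squares and triangles are replicates 1, 2 and 3, and bars are group means. In tubules the injured F samples sit above the sham F samples in all 10 panels, and the sham M samples spread most widely.

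The comparison of injured with sham F tubules asks what ischemia did to tubule isolates of females. All 10 acid-base genes had a higher level in each of the 3 injured samples than in any of the 3 sham samples, by a fitted 1.60 to 2.35 on the log2 scale (median 1.98, against 0.0035 over all genes tested). None passed the adjusted test. Foxi1 was at 11.4, 5.40 and 3.57 CPM in sham F replicates 1 to 3 and at 28.6, 18.5 and 30.4 CPM after injury. The injured samples were all above the highest sham sample, and the fitted difference was 1.93 ± 0.77 on the log2 scale (edgeR quasi-likelihood test, adjusted p = 0.356). Atp6v1b1, the pump's B1 subunit, was at 36.5, 29.3 and 18.4 CPM after sham and at 101, 83.5 and 96.8 CPM after injury. Its difference, 1.74 ± 0.39, had the smallest adjusted p of the 10 (edgeR, 0.102). Atp6v1g3, another pump subunit, ranged over 9.13 to 25.2 CPM after sham and over 55.8 to 66.1 CPM after injury (1.76 ± 0.69). Atp6v0d2 ranged over 6.60 to 13.0 CPM after sham and over 34.1 to 46.6 CPM after injury (2.04 ± 0.58). The fitted differences of the 3 pump subunits lay within 1 SE of each other.

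Slc4a1, the bicarbonate exit of type A cells, was at 18.1, 12 and 5.88 CPM after sham and at 47.9, 44.5 and 54.9 CPM after injury in F tubules (2.03 ± 0.54, edgeR adjusted p = 0.151). Rhcg was at 41.3, 37.4 and 18.7 CPM after sham and at 107, 84.0 and 103 CPM after injury (1.60 ± 0.43, edgeR adjusted p = 0.157). Sham F replicate 3 was the lowest sample for both, as it was for all 10 genes. Rhbg ranged over 2.61 to 12.3 CPM after sham and over 27.5 to 32.2 CPM after injury (1.75 ± 0.59). Aqp6 ranged over 6.16 to 18.1 CPM after sham and over 63.9 to 72.0 CPM after injury (2.34 ± 0.69). The injured F samples agreed closely with each other in these channels, while the sham samples spread by over 2-fold. Of the type B exchangers, Slc26a4 was at 33.0, 16.7 and 10.6 CPM after sham and at 101, 74.3 and 98.7 CPM after injury (2.19 ± 0.65, edgeR adjusted p = 0.198). Slc4a9 ranged over 2.56 to 11.0 CPM after sham and over 31.1 to 46.2 CPM after injury (2.35 ± 0.68). For genes of type A and of type B cells alike, the injured F samples lay above the sham F samples. In bulk RNA, more cells of a type and more RNA per cell cannot be told apart.

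For that comparison, no overlap in the higher direction was found for 15.3% of all genes tested, and 2 genes (0.0109%) were called in either direction. An unadjusted p under 0.05 was reached by all 10 acid-base genes, against 7.81% of genes tested in that direction. The call depended on which samples set the spread. When only the 2 F tubule groups were fitted, 9 of the 10 genes, all but Rhbg, were called higher (4.76% of genes tested). DESeq2 on all tubule samples called 7 (2.96%). Without sham M replicate 3, which is no part of the comparison, 4 were called (0.685%). Without that sample and injured M replicate 3, an alternative chosen after seeing the data, 9 were called (4.43%). The authors' deposited table of injury in F tubules had 5 of the 10 that passed, namely Atp6v1b1 (log2 fold change 1.51, adjusted p = 0.000102), Aqp6 (1.98, 0.0121), Slc4a9 (1.90, 0.0193), Slc26a4 (1.60, 0.0193) and Atp6v0d2 (1.5, 0.0416), per that table.

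In M tubules the 10 genes did not share a rise after injury. A fitted difference below 0 was found for 9 of the 10 genes (median -0.59, against -0.026 over all genes). None was called by edgeR or DESeq2, 2 had an unadjusted edgeR p under 0.05 (17.3% of genes in that direction), and none was without overlap. Genes called in either direction were 19% of those tested, and 16.7% were lower without overlap. Slc4a1 was at 60.1, 40.4 and 9.99 CPM in sham M replicates 1 to 3 and at 12.7, 16.6 and 17.1 CPM after injury (-1.25 ± 0.52, edgeR adjusted p = 0.111). Rhcg was at 84.5, 42.3 and 24.8 CPM after sham and at 19.0, 19.9 and 34.8 CPM after injury (-1.04 ± 0.42, edgeR adjusted p = 0.102). For both genes sham replicates 1 and 2 lay above all injured samples and sham replicate 3 lay within or below their range. Slc26a4 was at 90.1, 50.3 and 11.4 CPM after sham and at 70.8, 85.8 and 29.5 CPM after injury (0.29 ± 0.62, edgeR adjusted p = 0.776), so the injured samples lay within the sham range. Foxi1 was at 52.6, 18.5 and 3.54 CPM after sham and at 25.1, 35.1 and 11.8 CPM after injury, again within the sham range. Without sham M replicate 1, the fitted difference was above 0 for 7 of the 10 genes. Without sham M replicate 3 it was below 0 for all 10, and Slc4a1 was called lower (edgeR's quasi-likelihood test with Benjamini-Hochberg adjustment, adjusted p = 0.0239), where 3.74% of genes were. Without both replicates 3, Slc4a1, Rhcg, Atp6v1b1 and Atp6v0d2 were called lower, where 22.2% of genes were.

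The comparison of sham M with sham F tubules asks whether the sexes differed before injury. All 10 genes had a positive fitted difference, from 0.64 for Rhcg to 2.23 for Aqp6 (median 1.56, against 0.0133 over all genes). None was called by edgeR, where 5.8% of genes were called in either direction, and all 10 groups overlapped. An unadjusted p under 0.05 was found for 6, against 10.5% of genes in that direction, and DESeq2 called 3 higher, against 6.34% of genes. Aqp6 was at 128, 53.4 and 10.7 CPM in sham M replicates 1 to 3, against 16.7, 18.1 and 6.16 CPM in sham F (2.23 ± 0.69, edgeR adjusted p = 0.0895). Sham M replicates 1 and 2 were far above the F samples, and replicate 3 lay among them. Without sham M replicate 3, 5 genes were called higher in M (Aqp6, Atp6v0d2, Foxi1, Slc4a1 and Slc4a9), where 3.59% of genes were. Without both M replicates 3, 8 were called, all but Rhbg and Rhcg, where 9.66% of genes were. In the authors' deposited table Aqp6 alone passed, with a log2 fold change of 1.92 and an adjusted p of 0.00577.

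**Figure D2:**
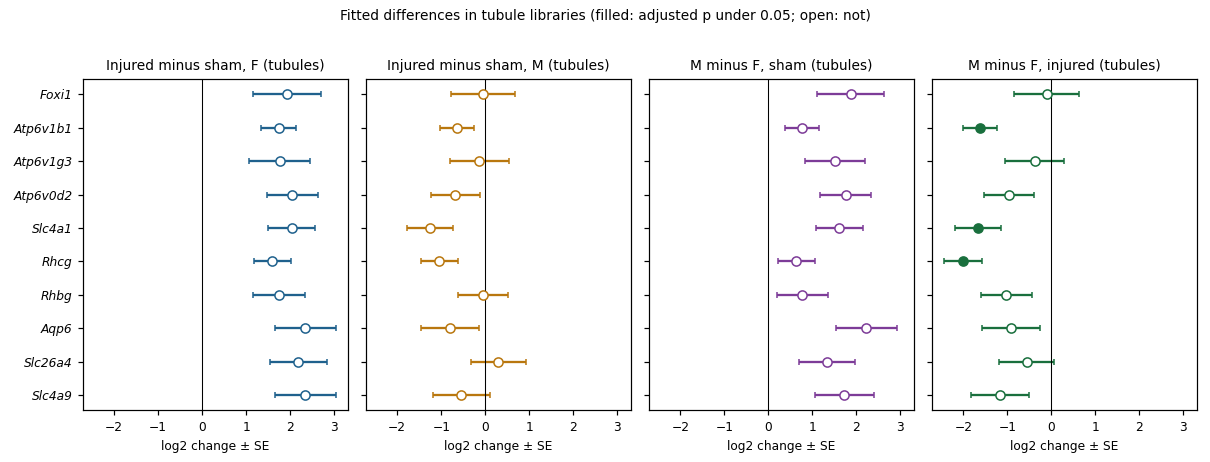
Fitted log2 differences ± SE for the 10 genes in tubule isolates: injured minus sham in F, injured minus sham in M, M minus F after sham, and M minus F after injury; filled points had an adjusted p under 0.05. All points lie above 0 in the F injury panel and below 0 in the panel of injured M minus F, where Atp6v1b1, Slc4a1 and Rhcg are filled; neighbouring panels share samples.

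After injury, 3 of the 10 genes were lower in M than in F tubules: Rhcg, Slc4a1 and Atp6v1b1, an ammonia channel, the type A exchanger and a pump subunit. Genes called lower were 10.5% of those tested. Rhcg was at 19.0, 19.9 and 34.8 CPM in injured M samples and at 107, 84.0 and 103 CPM in injured F samples, with no overlap (-2.0 ± 0.43, edgeR adjusted p = 0.00904). Atp6v1b1 was at 26.9, 35.1 and 29.3 CPM in M and at 101, 83.5 and 96.8 CPM in F (-1.62 ± 0.39, edgeR adjusted p = 0.0147). Slc4a1 was at 12.7, 16.6 and 17.1 CPM in M and at 47.9, 44.5 and 54.9 CPM in F (-1.67 ± 0.53, edgeR adjusted p = 0.042). For these genes every M sample lay below every F sample. Atp6v0d2, Slc4a9, Rhbg and Aqp6 also had no overlap, which made 7 of 10 against 21.9% of genes tested, but did not pass (-0.96, -1.17, -1.02 and -0.92 on the log2 scale).

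The genes that did not separate injured M from injured F tubules were Slc26a4, Atp6v1g3 and Foxi1. Slc26a4 was at 70.8, 85.8 and 29.5 CPM in M and at 101, 74.3 and 98.7 CPM in F (-0.56 ± 0.62). Atp6v1g3 was at 46.4, 74.4 and 22.8 CPM in M and at 64.9, 55.8 and 66.1 CPM in F (-0.38 ± 0.67). Foxi1 was at 25.1, 35.1 and 11.8 CPM in M and at 28.6, 18.5 and 30.4 CPM in F (-0.11 ± 0.73, edgeR adjusted p = 0.931). In all 3, M replicate 2 exceeded at least 1 F sample and M replicate 3 was the lowest of the 6. Without both M replicates 3 the same 3 genes as in the fit of all samples were called lower, where 25.7% of genes were. Leaving out 1 tubule sample at a time, Rhcg was called in every fit and Atp6v1b1 in all but the fit without injured M replicate 1, while the call of Slc4a1 was lost without any of the 3 injured F samples, injured M replicate 1 or 2, sham F replicate 2 or sham M replicate 2. The authors' deposited table had 2 members that passed, Atp6v1b1 (log2 fold change -1.43, adjusted p = 3.41e-05) and Rhcg (-1.94, 0.000144).

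The difference between the M and F injury responses was tested as an interaction in the tubule fit. It was negative for all 10 genes, from -1.80 for Rhbg to -3.28 for Slc4a1 (median -2.51, against -0.0909 over all genes). None was called by edgeR, where 0.855% of genes were called in either direction. DESeq2 called 6 lower, against 3.33% of genes, and 7 of the 10 had an unadjusted p under 0.05, against 9.79% of genes in that direction. The values nearest to a call were Slc4a1 (-3.28 ± 0.75, edgeR adjusted p = 0.0636), Rhcg (-2.64 ± 0.60, 0.0636) and Atp6v1b1 (-2.38 ± 0.55, 0.0644). Aqp6, Slc4a9 and Atp6v0d2 had differences of -3.15 ± 0.95, -2.89 ± 0.94 and -2.72 ± 0.81. Without sham M replicate 3, 5 genes were called (0.856% of genes in that direction), and without injured M replicate 3 also 5 (17.3%). These were the same 5: Slc4a1, Rhcg, Atp6v1b1, Atp6v0d2 and Aqp6. Without both, all 10 were called, with adjusted p up to 0.0491, where 18.5% of genes were called lower.

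In endothelial isolates the summed level of the 10 genes was 207 to 690 CPM, against 87.0 to 781 CPM in tubules. Injured minus sham in F gave a positive fitted difference for all 10 (0.43 to 1.61 on the log2 scale, median 0.92), and edgeR called 0 of all genes tested (0%). Of the 10, 4 had an unadjusted p under 0.05 in edgeR, against 1.53% of genes in that direction, and DESeq2 called none. Slc26a4 was at 10.5 and 28.8 CPM in the 2 sham F samples and at 47.1, 50.9 and 82.0 CPM after injury, without overlap (1.61 ± 0.50, edgeR adjusted p = 1). In M, 9 of 10 differences were negative (median -0.60). None was called by edgeR, where 0.864% of genes were, and 3 had an unadjusted p under 0.05, against 7% of genes in that direction. Slc4a1 was at 64.9, 61.7 and 51.6 CPM in sham M and at 22.7, 9.6 and 38.7 CPM after injury (-1.33 ± 0.48, edgeR adjusted p = 0.226), and Rhcg at 93.7, 99.5 and 88.5 CPM against 58.5, 20.1 and 64.8 CPM (-0.97 ± 0.42, edgeR adjusted p = 0.306). All injured M samples were below all sham M samples for both, but the share of all genes without overlap there is not given. Atp6v1b1 behaved alike, at 84.5, 84.6 and 93.8 CPM against 49.8, 36.0 and 63.4 CPM (-0.82 ± 0.24, edgeR adjusted p = 0.146), and DESeq2 called this gene alone of the 10, against 2.59% of all genes lower.

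Between the sexes in endothelial isolates, sham M minus sham F was positive for all 10 genes, 7 of them without overlap, against 12% of genes tested. None was called by edgeR, where 0.432% of genes were, and 5 had an unadjusted p under 0.05, against 4.05% of genes in that direction. The largest difference was that of Slc26a4, at 83.6, 81.3 and 32.1 CPM in M (1.74 ± 0.50, edgeR adjusted p = 0.289), followed by Atp6v1g3 and Slc4a9 (1.42 ± 0.49 and 1.36 ± 0.40). DESeq2 called Slc26a4 and Slc4a9 higher, where it called 1.28% of genes, and Slc26a4 alone passed in the authors' deposited table, with a log2 fold change of 1.61 and an adjusted p of 0.0281. After injury, M minus F was negative for 9 genes, led by Slc4a1 (-1.23 ± 0.48), Rhcg (-0.90 ± 0.42) and Atp6v1b1 (-0.76 ± 0.24), with none called by edgeR, where 1.5% of genes were, 2 at an unadjusted p under 0.05, against 6.7% of genes in that direction, and none called by DESeq2. The interaction was negative for all 10 (-0.77 to -1.87). No gene of the whole table was called (0%), and 7 of the 10 had an unadjusted p under 0.05, against 3.24% of genes in that direction. The adjusted p of all 10 ran from 0.738 to 0.762 in edgeR. The 2 sham F endothelial samples differed by over 2-fold in Slc4a9, at 6.65 and 14.1 CPM, and in Foxi1, at 5.3 and 13.8 CPM.

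Endothelial and tubule isolates were set against each other in a fit of all 23 samples. After sham, Atp6v1b1 was higher in endothelial isolates (0.88 ± 0.25, edgeR adjusted p = 0.0261), 1 of 10 where 10.4% of genes were called higher. Slc4a1, Rhbg, Aqp6 and Rhcg gave 1.07 ± 0.39, 1.03 ± 0.40, 0.76 ± 0.44 and 0.70 ± 0.33, and the other 5 lay between -0.03 and 0.18. Of the 8 erythroid markers tested there, 7 had a positive difference and 3 were called higher, the globins Hba-a1 (2.18 ± 0.59, edgeR adjusted p = 0.0178), Hba-a2 (2.09 ± 0.55, 0.0154) and Hbb-bs (1.98 ± 0.55, 0.0212). The summed level of the 11 erythroid markers was 86.0 to 213 CPM in sham endothelial isolates and 25.9 to 56.5 CPM in sham tubules, and its part in the difference of Slc4a1 was not tested. The call for Atp6v1b1 was lost without either sham F endothelial sample, sham F tubule replicate 3, sham M endothelial replicate 3 or sham M tubule replicate 2. After injury edgeR and DESeq2 called none of the 10, where edgeR called 4.69% of genes, none had an unadjusted p under 0.05, against 17.2% of genes in either direction, and the differences lay between -0.57 and 0.27. Thick ascending limb markers (10 genes) were called higher in endothelial isolates after sham for 9, with a median of 2.53, and principal cell markers (11 genes) for 6. Without sham M tubule replicate 1, the highest of its group, 4 of the 10 acid-base genes were called higher (Atp6v1b1, Rhbg, Rhcg and Slc4a1), where 10.1% of genes were.

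The other genes of intercalated cells had been listed from general knowledge, but with earlier results of these data known. Of 17 such genes, all tested, all had a positive difference for injury in F tubules, with a median of 1.83 and none called. Of these, 15 were without overlap, against 15.3% of all genes in the higher direction. Slc26a7, a chloride-bicarbonate exchanger of type A cells, had the smallest p (3.66 ± 0.77, edgeR adjusted p = 0.0825), at a level of 0.373 ± 0.293 CPM (SD, n = 3) after sham and 4.84 ± 1.39 CPM after injury. In M tubules 1 of the 17 rose after injury, Tfcp2l1, a transcription factor of the distal nephron (1.33 ± 0.32, edgeR adjusted p = 0.0192). In M tubules 2 fell, Atp6v0a4, the pump's a4 subunit (-0.52 ± 0.15, 0.0334), and Dmrt2, a transcription factor of type A cells (-2.28 ± 0.67, 0.0377). Over all genes tested, 19% were called for injury in M tubules in either direction. In injured tubules 6 of the 17 were lower in M than in F and 1 was higher, with a median of -1.14. The share of all genes called higher in that comparison is not given. Over all genes tested, 10.5% were called lower there. The lower ones included Atp6v0a4 (-0.84 ± 0.15, edgeR adjusted p = 0.00388), Bsnd, the barttin subunit of chloride channels (-2.52 ± 0.50, 0.00631), and Oxgr1, the 2-oxoglutarate receptor (-2.68 ± 0.63, 0.0127). Bsnd was at 59.1 ± 1.83 CPM in injured F and at 10.3 ± 9.43 CPM in injured M tubules (SD, n = 3). Atp6v0a4 was at 492 ± 25.6 CPM in sham F and at 532 ± 59.3 CPM in injured F tubules, so it did not share the rise of the 10 acid-base genes. Whether the reads of these genes came from intercalated cells or from other cells of the isolate was not tested. Slc26a7 was also the only 1 of the 17 called in the interaction (-5.58 ± 1.03, edgeR adjusted p = 0.0339), where 0.855% of all genes were called.

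Other proton pump subunits formed a list of 18 genes, and whether each is found in every cell was not tested. For injury in F tubules 12 of the 18 had a positive difference, with a median of 0.08 and none called. In injured tubules 3 were higher and 3 lower in M, with a median of 0.01, led by Atp6v0a1 (0.73 ± 0.13, edgeR adjusted p = 0.00354) and Atp6v0e2 (-0.53 ± 0.12, 0.0125). Over all genes tested, 10.5% were called lower there. The share called higher is not given, so the 3 higher genes cannot be set against it. The summed level of the 18 genes stayed at 3200 to 3610 CPM in all 12 tubule samples, while that of the 10 acid-base genes ranged from 87.0 to 781 CPM.

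In tubules the sum of principal cell markers varied with that of the 10 genes, while sums for other neighbouring segments did so less closely. The summed level of the 10 was 87.0 to 227 CPM in sham F tubules, 541 to 676 CPM in injured F, 114 to 781 CPM in sham M and 224 to 402 CPM in injured M. The sum of 11 principal cell markers was 176 to 288, 915 to 1170, 219 to 1320 and 363 to 567 CPM in the same order. Their ratio stayed between 0.495 and 0.787 in all 12 tubule samples, although each sum varied several fold. The principal cell markers gave a median of 2.03 for injury in F tubules, with 10 of 11 positive and none called. In injured tubules 3 of the 11 were lower in M than in F, where 10.5% of all genes were. These were Aqp3, a basolateral water channel (-1.21 ± 0.31, edgeR adjusted p = 0.0174), Hsd11b2 (-2.05 ± 0.64, 0.0405) and Avpr2, the vasopressin receptor (-2.32 ± 0.73, 0.0416). The sum of 10 thick ascending limb markers was 2430 to 3030, 7100 to 9660, 2030 to 4260 and 2380 to 6020 CPM. The ratio of the 10 acid-base genes to it ran from 0.0287 to 0.183. Of these markers 7 of 10 were lower in injured M than in injured F, where 10.5% of all genes were. The sum of 7 distal convoluted and connecting tubule markers was 1180 to 1590, 2580 to 3230, 549 to 1170 and 791 to 3330 CPM. Sham M lay below sham F in that sum, while the mean sum of the 10 acid-base genes was higher in sham M (423 against 164 CPM). Proximal tubule markers had differences below 0 for injury in F tubules, 13 of 13, with a median of -0.30 and none called. The part of these cell types in the differences of the acid-base genes was not tested.

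**Figure D3:**
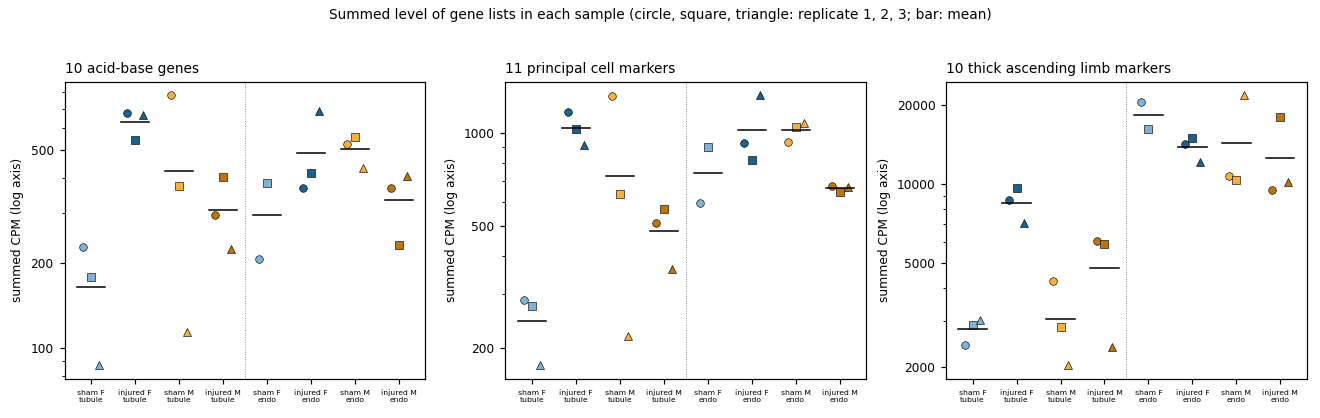
Summed CPM of the 10 acid-base genes, 11 principal cell markers and 10 thick ascending limb markers in every sample, on log axes; symbols are replicates and bars are group means. In tubules the acid-base and principal cell sums rank the samples almost alike, with sham F and sham M replicate 3 lowest and sham M replicate 1 highest; in endothelial isolates the thick ascending limb sum is higher than in any tubule sample except injured F replicate 2, which lies within its range.

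The levels of the 10 genes varied together across samples. Over 12 tubule samples the Pearson r of log2 CPM between members ran from 0.505 for Foxi1 with Rhcg to 0.985 for Atp6v0d2 with Aqp6, with a median of 0.906 over 45 pairs. Over 11 endothelial samples it ran from 0.25 for Slc4a1 with Slc26a4 to 0.965 for Slc4a1 with Rhcg, with a median of 0.765. These values describe samples that share groups and library composition. Among 14570 protein-coding genes tested in tubules, the 8 most like the members' mean were Atp6v1c2 (r = 0.989), the C2 subunit of the pump, Avpr1a (0.974), a vasopressin receptor, Ckmt1 (0.974), Aqp2 (0.967), the principal cell water channel, Dkk3 (0.965), Scnn1b (0.965), a sodium channel subunit of principal cells, Pitpnm3 (0.96) and Tmem163 (0.958). Without the 2 samples farthest from the median, sham F and sham M replicate 3, their r was 0.909 or above, and Spearman's rho over all 12 was 0.937 to 0.993. Among 15295 genes in endothelial isolates the 8 were Hepacam2 (0.966), 4930550C14Rik (0.965), Scnn1b (0.96), Gm38392 (0.953), which shares exon bases with Rhbg, Klkb1 (0.945), Mmd2 (0.928), A930017K11Rik (0.911) and Fam221b (0.91). For these 8, Spearman's rho was 0.745 to 0.973, and r without sham F replicate 1 and injured F replicate 3 was 0.748 to 0.943. Scnn1b was the only gene in both sets of 8.

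Within samples, the balance of type B to type A exchanger differed in a few injured M samples. The ratio of Slc26a4 to Slc4a1, in CPM per kb, was 8.22 and 7.64 in injured M tubule replicates 1 and 2. It was 2.55 in injured M replicate 3 and lay between 1.68 and 3.11 in the other 10 tubule samples counted with that replicate. The ratio of Slc26a4 to Rhcg was 2.54 and 2.93 in the same 2 samples against 0.303 to 0.809 in the other 10, and that of Foxi1 to Rhcg was 1.17 and 1.56 against 0.126 to 0.552. The ratio of Slc4a9, the other type B exchanger, to Slc4a1 separated them less, at 1.98 and 2.16 against 0.69 to 1.53. In these 2 samples Slc4a1 and Rhcg lay below all injured F tubule samples but within the range of the sham F samples. Slc26a4 and Foxi1 lay above all sham F samples. In endothelial isolates injured M replicate 2 had a ratio of Slc26a4 to Slc4a1 of 8.78, against 0.577 to 3.71 in the other 10, and the sham F samples had the lowest, 0.577 and 0.803. Injured M replicate 2 of tubules and of endothelial isolates carry the same title number, 4. From TPM in place of CPM per kb the tubule values were 8.5 and 6.75 against 1.22 to 2.86. The pattern was noticed after the values were seen and has no test.

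**Figure D4:**
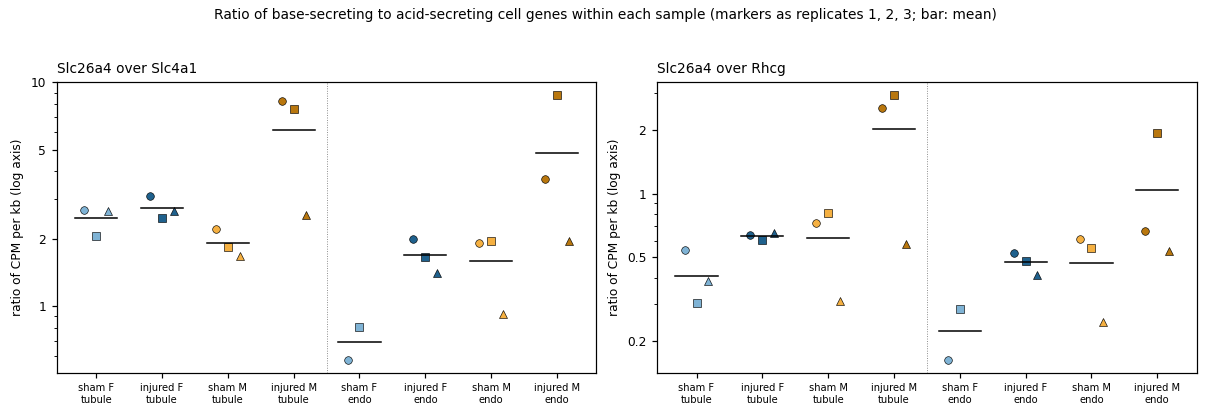
Ratio of Slc26a4 to Slc4a1 (left) and of Slc26a4 to Rhcg (right) in every sample, in CPM per kb on log axes; symbols are replicates and bars are group means. Injured M tubule replicates 1 and 2 and injured M endothelial replicate 2 lie above all other samples in both panels, at 8.22, 7.64 and 8.78 on the left.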

How the data were processed

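The submitters' processing notes list Salmon 0.13.1, DESeq2 (version not given) and the build GRCm38. The 24 quantification files the authors deposited hold an estimated count per transcript (expected counts, not normalized) and a TPM, the abundance scaled within the library. Per the labels' protocols, libraries came from polyA RNA; their strand setting is not given in the sources used here. The authors' deposited comparison tables hold a log2 fold change, its error and an adjusted p-value per gene. Columns left unused for want of a sample numbered 0.

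Estimated counts of 136202 transcripts were summed to 53392 genes (53355 found in GENCODE M21) and rounded. The 2 libraries of sham M tubule replicate 3 (21192147 and 21054285 estimated reads) were summed. edgeR 4.0.16 (R 4.3.3) was run on each isolate with all its groups, so that they shared an estimate of the spread. It used TMM, filterByExpr, a mean for every group, and the quasi-likelihood test. The filter asked for about 10 counts in at least as many samples as the smallest group holds, and for 15 in all. Benjamini-Hochberg adjustment covered every gene in the fit, which was 18369 in tubules, 19910 in endothelial isolates and 21206 in both. Calls needed an adjusted p below 0.05. SE was computed as the absolute log2 change divided by the square root of F. The fits had a common BCV (the spread between replicates) of 0.3923, 0.4469 and 0.4471 and 8, 7 and 15 residual degrees of freedom.

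On counts simulated for injury in F tubules (17722 genes), 35 of 100 genes changed 2-fold, 89 of 100 changed 4-fold and 2 of 17522 unchanged genes were called. The changed genes were drawn from those with a mean expected count of at least 100. Before the change all groups had the same mean, so the rates apply to that setting only. Alternatives were RLE scaling, every gene kept, DESeq2 1.42.0, fits of only the groups compared, length offsets, a replicate block, each technical library alone and the omission of each sample. Correlations used log2 CPM with a prior count of 2. Named are all 10 members, up to 4 genes of each other list by smallest p, the 8 genes most like the members in each isolate, and Havcr1, Lcn2, Pecam1, Cdh5, Slc34a1 and Lrp2 as label checks. The members, lists, naming rule and alternatives were chosen with earlier results of these data known.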

Additional observations from a re-analysis of the deposited data

How the results depend on the processing

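The number of the 10 genes called changed with the settings. The number called over all genes changed too, as given further below for some of the settings, so the counts for the 10 cannot be read alone. Where no number over all genes is given, as for leaving out 1 sample at a time, the count describes only the setting. It is then no result about the 10. With no low-count filter edgeR called 3 of the 10 for injury in F tubules, 3 for sham M minus F tubules and 5 for the tubule interaction. It also called 1 for sham M minus F endothelial isolates and 2 for endothelial minus tubule after sham. DESeq2 called 7, 3, 6, 2 and 2 in these comparisons and 1 for injury in M endothelial isolates. Over all genes DESeq2 called 2.96% higher for injury in F tubules, 6.34% higher for sham M minus F tubules and 3.33% lower for the interaction. It called 1.28% higher for sham M minus F endothelial isolates and 2.59% lower for injury in M endothelial isolates. Fits of only the groups compared called 9 for injury in F tubules (4.76% of all genes higher), 5 for injured M minus F tubules and 0 for endothelial minus tubule after sham. Leaving out both M tubule replicates 3, chosen after seeing the data, called 9 for injury in F, 4 for injury in M, 8 for sham M minus F, 3 for injured M minus F and 10 for the interaction. The shares of all genes called in the same direction were 4.43%, 22.2%, 9.66%, 25.7% and 18.5%. Leaving out 1 sample at a time gave 0 to 4 for injury in F, 0 to 1 for injury in M, 0 to 5 for sham M minus F, 1 to 3 for injured M minus F, 0 to 5 for the interaction and 0 to 4 for endothelial minus tubule after sham. The cause was not tested.

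The fitted difference of Foxi1 in injured M minus F tubules (-0.11) was 0.22 without both M replicates 3 and ran from -0.49 to 0.22 over fits without 1 sample (Foxi1, tubule injured, M minus F). That of Slc26a4 for injury in M tubules ran from -0.18 to 1.0 (Slc26a4, tubule injury, M). Over all comparisons and alternatives, 78 of 2500 fitted differences of the 10 genes changed sign.

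The replicate block, a term for the replicate number, called 3 for injured M minus F tubules and 0 for endothelial minus tubule after sham, where the call of Atp6v1b1 was lost (adjusted p = 0.0775 in edgeR), and 0 in the other comparisons. The share of all genes called with the block is not given here. The replicate numbers were not taken to pair the samples, because the labels do not say that they do. Correlations such as those that follow cannot show whether a pair shares a mouse. Every endothelial sample had the title number of a tubule sample of the same sex and treatment. The endothelial minus tubule comparisons treated all samples as separate, so a shared mouse would go unmodelled there. Deviations from the group means correlated above 0.1 in 2 of 18 same-numbered tubule pairs and 4 of 15 endothelial pairs. Between a tubule and an endothelial sample with the same title number they did so in 0 of 5 sham pairs and 5 of 6 injured pairs (-0.505 to 0.646), and the labels do not say whether such a pair shares a mouse.

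Over all genes, calls for injury in F tubules were 2 in the fit of all tubule samples, 158 with no filter, 698 with DESeq2, 1167 with only the F groups and 1205 without both M replicates 3. Calls for injury in M tubules were 3488, against 5360 with DESeq2, 2118 with length offsets and 154 with only the M groups. For sham M minus F tubules 1065 became 2051 with DESeq2 and 1709 with only the sham groups, for injured M minus F tubules 4271 became 1710 with only the injured groups, and for the interaction 157 became 1535 with DESeq2, 399 with no filter and 60 with length offsets. In endothelial isolates DESeq2 called 33, 1217, 388, 1177 and 62 genes for injury in F, injury in M, sham and injured M minus F and the interaction, against 0, 172, 86, 298 and 0 in edgeR, where no filter gave 18, 865, 250, 824 and 44. For endothelial minus tubule after injury 995 became 1895 with DESeq2. With length offsets a call was lost for 1 gene (Slc4a1, tubule injured, M minus F; edgeR adjusted p = 0.0975). As for depth, the lowest gene count among the 10 in any sample was 93 reads, for Slc4a9.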

Other observations

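Carbonic anhydrases and proximal acid-base genes formed a separate list of 11 genes that serve bicarbonate and ammonia handling. The list was not restricted to genes absent from intercalated cells. Which cells of the isolate their reads came from was not tested. In M tubules 3 fell after injury: Car4, the membrane-bound form of the proximal brush border (-1.22 ± 0.28, edgeR adjusted p = 0.0168), Car14 (-1.05 ± 0.25, 0.0175) and Car12 (-0.85 ± 0.25, 0.0385). Glud1, glutamate dehydrogenase, which releases ammonia from glutamate, rose (0.71 ± 0.13, 0.00635). Over all genes tested, 19% were called for injury in M tubules in either direction. In F tubules none of the 11 was called, and Car15 had the smallest p (1.87 ± 0.38, edgeR adjusted p = 0.0822). The interaction called Glud1 alone of the 11 (0.94 ± 0.18, edgeR adjusted p = 0.0409), where 0.855% of all genes were called. Between injured M and F tubules, Car14 (-1.62 ± 0.25, edgeR adjusted p = 0.00193) and the cytosolic form Car2 (-1.12 ± 0.19, 0.00265) were lower in M, where 10.5% of all genes were. In sham tubules Car2 (-1.02 ± 0.19, 0.00761) and Pck1 (-1.11 ± 0.21, 0.00948), which encodes phosphoenolpyruvate carboxykinase, were also lower in M. In endothelial isolates Car4 and Car14 fell after injury in M (-1.85 ± 0.29 and -1.71 ± 0.31, edgeR adjusted p = 0.0209 and 0.0366). With the scaling of all 23 samples, the proximal tubule marker sum in the M endothelial isolates was 12600 to 24300 CPM after sham and 8670 to 10400 CPM after injury, and its part in that fall was not tested.

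The order of the genes by level changed with the unit. By median TPM, Slc4a1 stood at place 6 of 10 and Slc26a4 at place 3, against 9 and 5 by CPM per kb of the longest transcript. In the median library Slc4a1-204 held 57.5% and Slc26a4-202 held 50.3% of the TPM of their genes.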
